A study of Mus musculus with 10 samples.

Results

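Interferon-stimulated genes outside the OAS family were followed in subcutaneous fat 70 days after irradiation of the limb in mice. The set holds 31 genes of the 24421 gene symbols in the count files, taken by symbol from a list that leaves out the OAS and Slfn families. The rule names genes by symbol and uses no measured value. All 31 had enough reads to be tested.

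RNA came from inguinal subcutaneous white fat of the left hindlimb of wild-type (WT) C57BL/6J mice. The FLASH group (4 libraries) had received 33.3 Gy of electrons at ultra-high dose rate and the CONV group (3 libraries) the same dose at conventional dose rate, both from an ElectronFlash linear accelerator. Non-irradiated mice gave the sham group (3 libraries). All libraries were labelled as batch 1 and day 70, and the comparisons ask whether the genes differ after either form of irradiation and between the forms. Sex, age, housing and whether each library is a separate animal stand in none of the sources used here, and p-values measure the spread between these samples, which may be technical.

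Interferons are secreted by cells that sense viral or misplaced nucleic acid. Type I interferons bind the IFNAR receptor, whose kinases JAK1 and TYK2 phosphorylate STAT2 and other factors. STAT2 and IRF9 act in the ISGF3 complex, which binds the interferon-stimulated response element in promoters and switches on antiviral effectors, sensors and further signalling factors. DNA damage by radiation is known to engage the cGAS-STING branch of this pathway in several cell types, and white fat holds adipocytes, stromal cells and resident macrophages that carry its receptors. The inguinal depot also encloses a lymph node.

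Libraries held 22387877 to 36032027 counts assigned to genes. Levels are CPM, counts scaled to a common library total after TMM scaling, and the floor of 3 counts lies at 0.0909 to 0.116 CPM and covers only counting error. Adipocyte markers were abundant in 8 libraries, where 9 genes summed to 13900 to 20500 CPM. FLASH replicate 3 and CONV replicate 2 stood apart: the same sum was 3470 and 3180 CPM there, and 10 B cell and lymph node genes summed to 1980 and 2420 CPM, against 1.69 to 7.21 CPM in the other 8. The complement receptor Cr2 of mature B cells and follicular dendritic cells reached 417 and 382 CPM in that pair and at most 0.544 CPM elsewhere. These lymphocyte-rich libraries enter the results with and without. In bulk tissue, more cells of a type and more RNA per cell cannot be told apart.

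The response element was searched in RefSeq promoter windows (mouse build GRCm38.p6, 250 bases before to 50 after each gene start). Of the 31 genes, 23 had a window, and 12 of these (52.2%) held the core GAAANNGAAA on either strand, against 1079 of 27025 genes (3.99%). The gamma-activated site core TTCNNNGAA, which can overlap it, was found in 5 of the 23 (21.7%), against 9.55% of all genes. A match describes letters and is no measure of binding. The stretches below show the core, in capitals, in genes that are set against each other in the results: Stat2, Bst2 and Trim30a, whose CONV libraries all lay above the sham libraries, and Isg15, Ifit1, Ifit3 and Rsad2, whose libraries overlapped. Each is written 5′ to 3′ on the strand of its gene, so that capitals beginning with T are the reverse complement of the core.
Stat2: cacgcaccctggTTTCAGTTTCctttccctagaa
Bst2: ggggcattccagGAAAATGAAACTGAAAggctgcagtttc
Trim30a: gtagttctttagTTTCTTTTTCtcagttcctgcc
Isg15: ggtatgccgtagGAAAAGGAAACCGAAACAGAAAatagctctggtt
Ifit1: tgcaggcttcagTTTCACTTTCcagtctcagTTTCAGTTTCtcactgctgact
Ifit3: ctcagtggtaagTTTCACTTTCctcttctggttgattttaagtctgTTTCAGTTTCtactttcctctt
Rsad2: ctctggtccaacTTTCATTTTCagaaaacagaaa
They lie on the plus strand at chr10:128270264-128270297 (Stat2), chr19:34640773-34640825 (Ifit1) and chr19:34583361-34583428 (Ifit3), and on the minus strand at chr8:71537575-71537614 (Bst2), chr7:104465208-104465241 (Trim30a), chr4:156200863-156200908 (Isg15) and chr12:26456551-26456584 (Rsad2). Isg15 held 3 overlapping cores, Bst2 held 2 overlapping ones, and Ifit1 and Ifit3 held 2 apart from each other. Genes with a core thus stood in both classes, those with separate groups and those with overlapping groups.

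Most of the 31 genes were highest in the lymphocyte-rich pair. FLASH replicate 3 was the highest of the 10 libraries for 15 genes, stood off from the other FLASH libraries by Dixon's 95% criterion for 15 (17.3% of all genes did so). CONV replicate 2 was the highest for 12 genes. Both lay above each of the other 8 libraries for 23 of the 31 genes, where they did so for 32.6% of all genes tested, and the mean of the pair was a median of 2.32 times the mean of the other 8. The ratio was 10 for the antiviral GTPase Mx1 and 6.33 for the nucleic acid sensor Zbp1. It was 1.12 for Parp9, 0.869 for the RNA sensor Ifih1 and 0.825 for the guanylate-binding protein Gbp2, the lowest. Outside the pair, CONV replicate 3 was the highest of the 8 libraries for 17 genes, and the share over all genes was not computed. That library lay above every sham library for 37.5% of all genes tested and below every one for 35%.

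**Figure D1:**
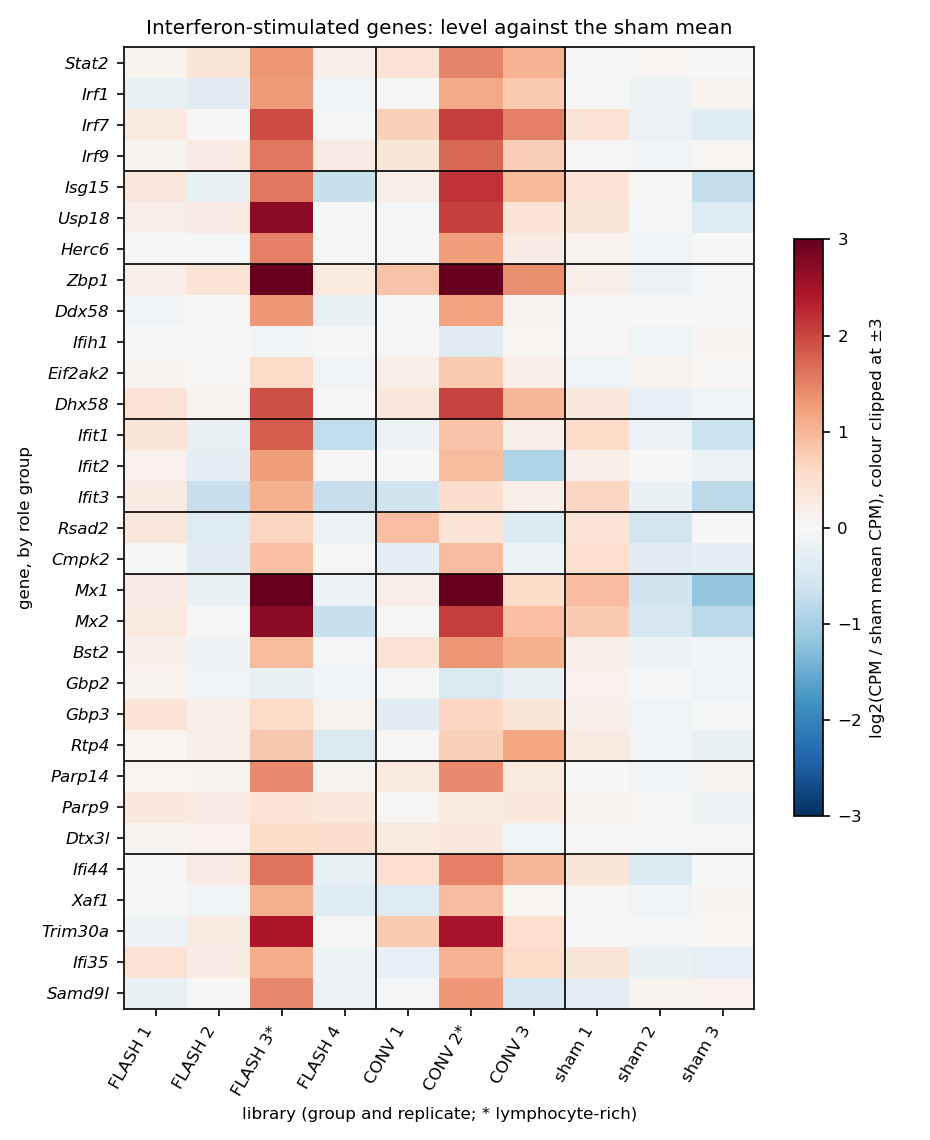
Level of each interferon-stimulated gene (rows, by role) in each library (columns, lymphocyte-rich ones starred) as log2 of CPM over the mean of the sham libraries, with the colour clipped at 3 in each direction. FLASH 3 and CONV 2 are raised in most rows, CONV 3 in the upper rows, and Ifih1 and Gbp2 stay near the sham mean.

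Set against the sham libraries one at a time, 8, 8, 29 and 5 of the 31 genes lay above every sham library in FLASH replicates 1 to 4, and 12, 28 and 20 in CONV replicates 1 to 3. The share of all tested genes above every sham library was 27.3%, 21.9%, 43.3% and 23.9% in the FLASH libraries and 28.5%, 43.6% and 37.5% in the CONV libraries. The counts of 8, 8 and 5 genes in FLASH replicates 1, 2 and 4 are near or under what these shares give for 31 genes. CONV replicate 3 exceeded CONV replicate 1 in 24 of 31 genes, and the share over all genes was not computed. The mean log2 level of the set, less the sham mean, was 0.171, 0.0311, 1.41 and −0.0692 in FLASH replicates 1 to 4, 0.178, 1.29 and 0.46 in CONV replicates 1 to 3, and 0.257, −0.111 and −0.146 in sham replicates 1 to 3.

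With all 10 libraries no gene of the set passed edgeR's quasi-likelihood test at an adjusted p under 0.05 (Benjamini and Hochberg over 15266 genes). The background was 0% of all genes for FLASH against sham, 0% for CONV against sham and 0% for FLASH against CONV, and 99, 889 and 453 genes had an unadjusted p under 0.05. The lowest adjusted p in the set was 0.998, 0.607 and 0.999 in these comparisons. The median log2 fold change of the set was 0.46 in FLASH against sham, 0.61 in CONV against sham and −0.09 in FLASH against CONV, beside 0.03, 0.08 and −0.04 over all genes. In FLASH against sham 29 of 31 were above 0, where 54.1% of all genes were, and in CONV against sham also 29 of 31, where 56.9% were. An unadjusted p under 0.05 with higher levels was met by 1 gene in FLASH against sham (Parp9; 0.373% of all genes) and by 4 in CONV against sham (Stat2, Irf7, Zbp1 and Bst2; 3.46%). None was lower at that threshold in FLASH against CONV (1.53%). FLASH and CONV share the sham libraries, so their comparisons with sham are not independent.

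Without the lymphocyte-rich pair the spread between libraries was smaller, with a biological coefficient of variation of 0.284, against 0.543 with all 10. Again no gene of the set passed, in a background of 0% of 15252 genes for FLASH against sham, 0.0393% for CONV against sham and 0.0131% for FLASH against CONV. The median of the set was −0.02 in FLASH against sham, 0.21 in CONV against sham and −0.19 in FLASH against CONV, beside −0.01, 0.01 and −0.02 over all genes. Fold changes above 0 numbered 14 of 31 in FLASH against sham (48.5% of all genes) and 24 of 31 in CONV against sham (51.3%), and 23 of 31 were below 0 in FLASH against CONV (53.1%). At an unadjusted p under 0.05, 1 gene was higher in FLASH than in sham (Parp9; 1.32% of all genes), 9 were higher in CONV than in sham (7.02%), and 8 were lower in FLASH than in CONV (6.90%). The 9 were Stat2, Irf9, Irf7, Dhx58, Zbp1, Bst2, Parp14, Ifi44 and Trim30a. DESeq2 on the same 8 libraries called Stat2, Irf9, Irf7, Zbp1, Bst2 and Trim30a higher in CONV than in sham, where it called 4.33% of all genes, and called Irf7, Zbp1, Bst2 and Trim30a lower in FLASH than in CONV, where it called 4.37%. When CONV replicate 1 was left out as well, which leaves CONV replicate 3 as the only CONV library, edgeR called 7 genes of the set higher and Ifit2 lower in CONV than in sham, where it called 7.22% of all genes. In that fit 6 of the set were lower and Ifit2 was higher in FLASH than in CONV (6.52% of all genes). When CONV replicate 3 was left out instead, CONV replicate 1 was the only CONV library. The median log2 fold change of the set was then 0.02 in CONV against sham and −0.09 in FLASH against CONV. The calls of these genes in CONV thus depended on the test. EdgeR made them only where CONV replicate 3 was the only CONV library.

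**Figure D2:**
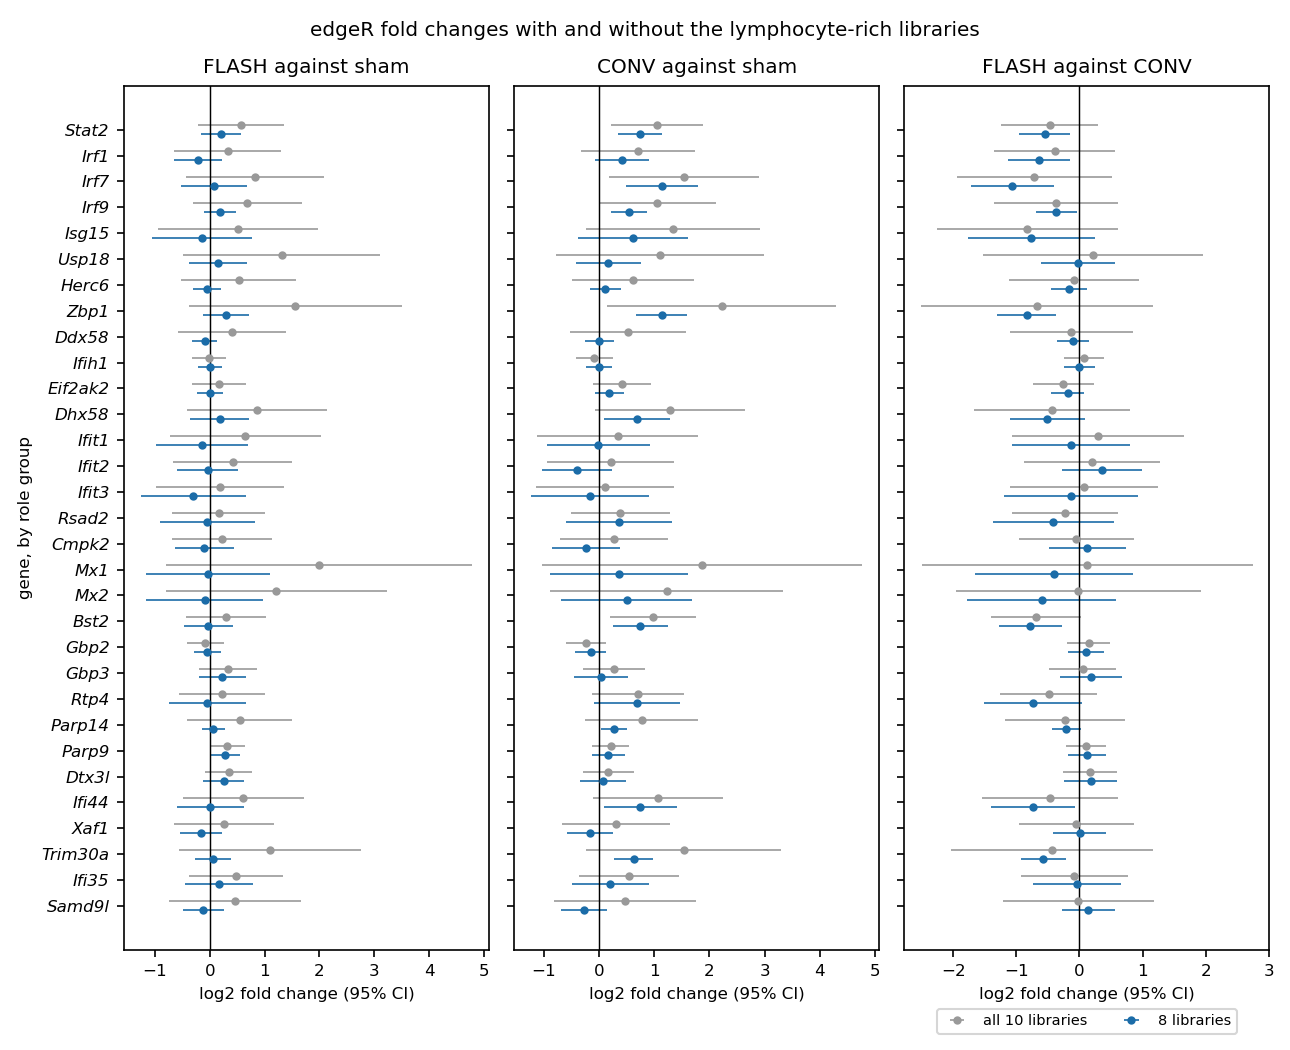
Log2 fold change with its 95% confidence interval from edgeR for the 31 genes in the 3 comparisons (FLASH with sham at left, CONV with sham in the middle, FLASH with CONV at right), with all 10 libraries (grey) and with the 8 libraries left without the lymphocyte-rich pair (blue). The blue intervals are narrower for most genes, hold 0 in FLASH against sham for each gene but Parp9, and lie right of 0 in CONV against sham for 9 genes, Stat2, Irf7 and Zbp1 among them.

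The separation of groups in single genes followed the same order. All FLASH libraries lay above all sham libraries for 5 genes with and without the pair: Stat2, Irf9, Zbp1, Parp9 and Dtx3l (2.46% of all genes with 10 libraries, 5.14% with 8). All CONV libraries lay above all sham libraries for 10 genes in both sets: Stat2, Irf9, Irf7, Dhx58, Zbp1, Eif2ak2, Bst2, Parp14, Ifi44 and Trim30a (8.58% and 13.0%). No gene had all FLASH libraries below all CONV libraries among the 10 (1.12%), and 11 did among the 8 (13.3%): Irf1, Herc6 and those of the 10 just named other than Dhx58.

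The transcription factors of the pathway held 3 of the 9 genes with an unadjusted p under 0.05 in CONV against sham without the pair. Stat2, the subunit of ISGF3 that carries its activation domain, had 61.8, 73.7, 144 and 64.4 CPM in FLASH replicates 1 to 4, 77.8, 161 and 119 CPM in CONV replicates 1 to 3, and 55.9, 59.6 and 57.4 CPM in sham replicates 1 to 3. All 7 irradiated libraries lay above all 3 sham libraries. The log2 fold change without the pair was 0.20 ± 0.16 (SE) in FLASH against sham, 0.75 ± 0.17 in CONV against sham (edgeR, unadjusted p = 0.00268, adjusted p = 0.138) and −0.55 ± 0.18 in FLASH against CONV (adjusted p = 0.237). With all 10 libraries the CONV value was 1.05 ± 0.37 (adjusted p = 0.607).

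Irf7, the factor that amplifies type I interferon production, had 24.3, 19.6, 77.1 and 19.4 CPM in FLASH libraries, 32.6, 84.1 and 56.3 CPM in CONV libraries, and 26.5, 17.6 and 15.5 CPM in sham libraries. The CONV libraries all exceeded sham, and FLASH outside the pair lay within the range of sham. Without the pair Irf7 averaged 21.1 ± 2.76 CPM in FLASH (SD, n = 3), 44.5 ± 16.8 CPM in CONV (n = 2) and 19.8 ± 5.82 CPM in sham (n = 3). This is a log2 fold change of 1.14 ± 0.29 in CONV against sham (95% interval 0.48 to 1.80, edgeR adjusted p = 0.156) and −1.06 ± 0.29 in FLASH against CONV (adjusted p = 0.181). Irf9, the DNA-binding partner in ISGF3, reached 26.8 to 30.1 CPM in FLASH outside the pair, 32.7 and 42.4 CPM in CONV and 24.0 to 26.3 CPM in sham, a log2 fold change of 0.55 ± 0.14 in CONV against sham (adjusted p = 0.168). Irf1, a factor induced by interferon gamma as well, was at 42.4 to 50.2 CPM in FLASH, 53.2 and 91.3 CPM in CONV and 48.3 to 57.6 CPM in sham outside the pair, so that CONV replicate 1 lay within sham and CONV replicate 3 above it. Averaged over the 4 factors, the log2 level less that of sham was 0.0716 to 0.0829 in FLASH replicates 1, 2 and 4, and 0.389 and 1.03 in CONV replicates 1 and 3.

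Among the nucleic acid sensors the genes split. Zbp1, a sensor of Z-form nucleic acid that can start necroptosis, had 9.02, 10.4, 63.1 and 9.52 CPM in FLASH libraries, 14.2, 74.9 and 20.6 CPM in CONV libraries, and 8.99, 6.87 and 7.53 CPM in sham libraries. The order was CONV above FLASH above sham in every library outside the pair, with FLASH replicate 1 close to sham replicate 1. Its log2 fold change without the pair was 1.14 ± 0.20 in CONV against sham, the lowest p of the set (unadjusted p = 0.000485, edgeR adjusted p = 0.0924), and −0.84 ± 0.20 in FLASH against CONV (adjusted p = 0.16). Dhx58, which encodes LGP2, a helicase that tunes RNA sensing, had 12.1, 9.7, 34.5 and 9.02 CPM in FLASH, 11.4, 36.6 and 18.1 CPM in CONV, and 11.2, 7.58 and 8.24 CPM in sham. CONV replicate 1 was close to the highest sham library, and the log2 fold change without the pair was 0.69 ± 0.26 (adjusted p = 0.309).

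The RNA sensors RIG-I and MDA5 did not share this pattern outside the pair. Ddx58, which encodes RIG-I, averaged 64.0 ± 5.89 CPM in FLASH, 69.3 ± 4.74 CPM in CONV and 68.0 ± 0.589 CPM in sham without the pair, with a log2 fold change of 0.01 in CONV against sham (95% interval −0.25 to 0.27). It was 167 and 156 CPM in the pair. Ifih1, which encodes MDA5, ranged from 63.5 to 68.0 CPM in FLASH, 53.4 to 69.4 CPM in CONV and 61.0 to 71.3 CPM in sham, and its log2 fold change in CONV against sham without the pair was 0.00 (95% interval −0.24 to 0.24). Eif2ak2, which encodes the kinase PKR, was 65.5 and 66.0 CPM in CONV outside the pair and 51.9 to 61.2 CPM in sham, a log2 fold change of 0.19 ± 0.11 (adjusted p = 0.528).

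**Figure D3:**
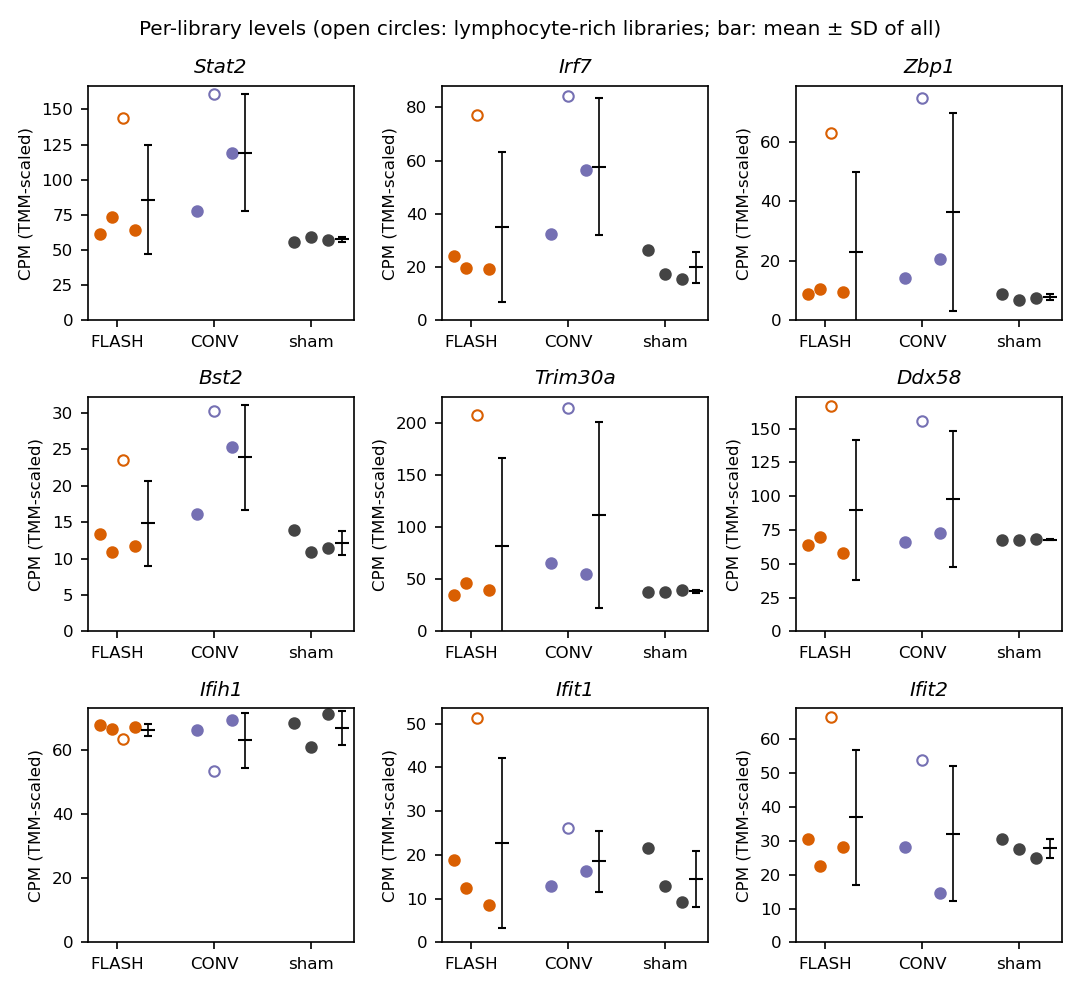
CPM of 9 genes in each library, with FLASH (orange), CONV (purple) and sham (grey) from left to right, the lymphocyte-rich libraries as open circles, and the mean ± SD of all libraries of a group beside them (cut at 0). Stat2, Irf7, Zbp1, Bst2 and Trim30a have every CONV library above every sham library, Ddx58 stands out in the open circles only, and Ifih1 has overlapping groups.

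The ISG15 system conjugates and removes a ubiquitin-like protein that marks proteins after interferon. Isg15 itself had 2.91, 1.98, 6.87 and 1.45 CPM in FLASH, 2.66, 10.4 and 4.56 CPM in CONV, and 3.13, 2.38 and 1.41 CPM in sham. CONV replicate 1 lay within sham, and the log2 fold change without the pair was 0.62 ± 0.43 in CONV against sham (adjusted p = 0.576). Usp18, the protease that removes ISG15 and restrains the receptor, had 8.18, 8.45, 46.5 and 7.17 CPM in FLASH, 6.76, 29.4 and 9.49 CPM in CONV, and 9.05, 6.8 and 5.41 CPM in sham. Apart from the pair its groups overlapped, with a log2 fold change of 0.18 ± 0.25 in CONV against sham. Herc6, the ligase for ISG15 in mice, ranged from 30.1 to 31 CPM in FLASH, 32 to 36.8 CPM in CONV and 28.8 to 33.7 CPM in sham outside the pair.

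The IFIT proteins bind foreign RNA ends and are among the most inducible products of type I interferon. Ifit1 had 18.8, 12.4, 51.2 and 8.65 CPM in FLASH, 13, 26.2 and 16.3 CPM in CONV, and 21.6, 12.8 and 9.24 CPM in sham. Ifit2 had 30.4, 22.7, 66.5 and 28.2 CPM in FLASH, 28.1, 53.8 and 14.5 CPM in CONV, and 30.6, 27.7 and 24.9 CPM in sham. Groups overlapped for both, and CONV replicate 3, which was high in Stat2 and Irf7, was the lowest of the 10 libraries for Ifit2. Without the pair all 3 IFIT genes had negative fold changes in CONV against sham, with −0.01 ± 0.40 for Ifit1, −0.40 ± 0.27 for Ifit2 and −0.16 ± 0.46 for Ifit3 on the log2 scale (adjusted p of 0.571 to 0.994), so that none was called. Ifit1, Ifit2 and Ifit3 are neighbours on chromosome 19 and close paralogs, and how reads shared between paralogs were treated was not given in the sources used here.

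Membrane and GTPase effectors also differed among themselves. Bst2, which encodes tetherin and holds budding virus at the cell surface, had 13.4, 10.9, 23.5 and 11.7 CPM in FLASH, 16.1, 30.3 and 25.3 CPM in CONV, and 14, 10.9 and 11.5 CPM in sham. Its log2 fold change without the pair was 0.75 ± 0.22 in CONV against sham (adjusted p = 0.203) and −0.78 ± 0.22 in FLASH against CONV (adjusted p = 0.192), with all CONV libraries above all others outside the pair. Bst2 also marks plasmacytoid dendritic cells, whose more specific marker Siglech was at 51.1 and 32.2 CPM in the pair and 0.294 to 4.02 CPM in the other 8. For 7 markers of these cells, Bst2 included, the mean log2 level less that of sham was 0.685 in CONV replicate 1. It was −0.647 in CONV replicate 3 and −0.279 to 0.33 in sham libraries. The part of these cells in the level of Bst2 was not tested. Rtp4, a chaperone that limits RNA viruses, had 16.2, 18.1, 27.4 and 11.6 CPM in FLASH, 16, 25.6 and 35.5 CPM in CONV, and 19, 14.6 and 13.4 CPM in sham. CONV replicate 3 was its highest library, above both libraries of the pair, and CONV replicate 1 lay within sham.

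Mx1, an antiviral GTPase of the nucleus in mice, had 5.78, 4.28, 64 and 4.42 CPM in FLASH, 5.67, 41.3 and 7.17 CPM in CONV, and 9.29, 3.25 and 2.18 CPM in sham. The sham libraries spanned the range of all irradiated libraries outside the pair, and the log2 fold change of 1.88 ± 1.28 in CONV against sham with all 10 libraries was 0.36 ± 0.54 without the pair. C57BL/6 mice are known to carry a defective Mx1 gene, so its RNA reads the induction and not a working protein. Mx2, its neighbour and paralog, was at 27.9 and 18 CPM in the pair and at 2.45 to 8.02 CPM elsewhere. Gbp2 and Gbp3, guanylate-binding proteins that act against intracellular pathogens, ranged from 76.1 to 96.0 CPM and 21.6 to 35.9 CPM outside the pair, with overlapping groups.

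Rsad2, which encodes viperin, and its neighbour Cmpk2, a mitochondrial nucleotide kinase, showed no separation. Rsad2 had 27.7, 16.6, 33.8 and 19.5 CPM in FLASH, 40.6, 28.7 and 16.3 CPM in CONV, and 28.4, 14.9 and 22 CPM in sham, so that CONV replicate 1 was highest and CONV replicate 3 among the lowest. Cmpk2 had 14.5, 11.3, 26.6 and 14.4 CPM in FLASH, 11.9, 27.1 and 12.8 CPM in CONV, and 19.8, 11.4 and 11.7 CPM in sham. Their log2 fold changes in CONV against sham without the pair were 0.37 ± 0.41 and −0.23 ± 0.26 (adjusted p = 0.742 and 0.751).

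Parp9 had the lowest p of the set in FLASH against sham. It encodes a partner of the ubiquitin ligase DTX3L that boosts interferon signalling, and had 120, 113, 126 and 120 CPM in FLASH, 98.1, 115 and 120 CPM in CONV, and 104, 97.6 and 86.1 CPM in sham. All FLASH libraries exceeded all sham libraries, and the lymphocyte-rich FLASH library differed little from the rest. The log2 fold change was 0.32 ± 0.14 with all 10 libraries and 0.29 ± 0.12 without the pair (edgeR unadjusted p = 0.0489 and 0.0407, adjusted p = 0.998 and 1). Dtx3l was at 160 to 224 CPM in FLASH, 138 to 189 CPM in CONV and 145 to 157 CPM in sham. Parp9 and Dtx3l overlap head to head on chromosome 16 and share 458 exon bases on opposite strands, and as the sources used here do not give the strand setting of the counting, the values of each are uncertain by the reads of the other. Parp14, a mono-ADP-ribosyl transferase beside them, had 138, 139, 353 and 139 CPM in FLASH, 162, 354 and 161 CPM in CONV, and 131, 125 and 140 CPM in sham, a narrow spread that gave a log2 fold change of 0.27 ± 0.10 in CONV against sham without the pair (adjusted p = 0.298).

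Of the remaining effectors, Trim30a and Ifi44 had all CONV libraries above all sham libraries. Trim30a, a mouse TRIM protein known to limit inflammasome and Toll-like receptor signalling, had 34.5, 46.7, 208 and 39.5 CPM in FLASH, 65.9, 214 and 54.7 CPM in CONV, and 37.9, 37.5 and 40.1 CPM in sham. Its log2 fold change without the pair was 0.63 ± 0.16 in CONV against sham (adjusted p = 0.153) and −0.57 ± 0.16 in FLASH against CONV (adjusted p = 0.185). It was 1 of the 7 genes that were higher in CONV replicate 1 than in CONV replicate 3. Ifi44 had 4.85, 5.71, 14.7 and 4.11 CPM in FLASH, 6.79, 13.8 and 9.67 CPM in CONV, and 6.23, 3.55 and 4.67 CPM in sham, a log2 fold change of 0.75 ± 0.29 in CONV against sham (adjusted p = 0.317). Samd9l, a growth-restraining antiviral factor, was 367 and 334 CPM in the pair, 117 to 135 CPM in the other FLASH, 95 and 132 CPM in the other CONV and 112 to 148 CPM in sham libraries. Ifi35 and the pro-apoptotic Xaf1 reached 33.9 and 32.5 CPM, and 32.5 and 29.7 CPM, in the pair and overlapped between groups elsewhere (13.2 to 23.6 CPM and 12 to 16.5 CPM).

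Per kilobase of exon, Gbp2 had the highest level in sham fat with 35.1 ± 2.71 CPM per kb (SD, n = 3), ahead of Dtx3l with 26.6 ± 1.09 and Samd9l with 24.8 ± 3.64, and Dtx3l and Samd9l did not differ beyond their spread. Mx1, Mx2 and Ifi44 were lowest with 1.3 ± 1.01, 1.19 ± 0.742 and 0.786 ± 0.22 CPM per kb, and did not differ from each other beyond their spread. Zbp1, at 2.21 ± 0.307 CPM per kb, stood 28th of the 31 genes.

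Upstream of the set, RNA of the interferons themselves was scarcely seen. Of 21 ligand genes 17 had 0 counts in all 10 libraries, Ifnb1 among them, and 20 had at most 3 counts in every library. Ifng, the ligand made by T and NK cells, had 1, 2, 17 and 2 counts in FLASH, 5, 26 and 3 counts in CONV, and 4, 2 and 1 counts in sham, with only the pair well above the floor. Of 10 receptor and kinase genes none was called by edgeR or DESeq2 in any comparison, with or without the pair. The receptor chains Ifnar1 and Ifnar2 were named after their values were seen. They were the 2 of the 10 with all CONV libraries above all sham libraries outside the pair. This held for 13.0% of all genes. Ifnar1 was at 91.1 to 97.8 CPM in FLASH, 107 and 108 CPM in CONV and 91.7 to 98.8 CPM in sham there, and Ifnar2 at 54.7 to 73.4 CPM in FLASH, 84 and 90.7 CPM in CONV and 70.3 to 78.3 CPM in sham (edgeR adjusted p = 0.508 and 0.519 in CONV against sham).

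Of 16 tested genes for sensing adaptors and induction factors, edgeR called none in any comparison, with or without the pair. Without the pair DESeq2 called 3 higher in CONV than in sham, Tmem173 (adjusted p = 5.77e-06), Myd88 (adjusted p = 0.00188) and Irf5 (adjusted p = 0.019), and 4 lower in FLASH than in CONV, those 3 and Mb21d1, which encodes the DNA sensor cGAS. Of all genes DESeq2 called 4.33% and 4.37% in these comparisons, in either direction. Without the pair all 16 had positive fold changes in CONV against sham with a median of 0.41, beside 51.3% of all genes. In FLASH against sham 7 were positive with a median of −0.01, beside 48.5% of all genes. Tmem173, which encodes STING, had 11.1, 12.6, 76 and 13.4 CPM in FLASH, 20.8, 87.7 and 30.3 CPM in CONV, and 11.3, 11.4 and 10.4 CPM in sham, a log2 fold change of 1.20 ± 0.18 in CONV against sham without the pair (edgeR adjusted p = 0.0816). Myd88, the adaptor of Toll-like receptors, had 22.0, 26.3, 38.9 and 28.9 CPM in FLASH, 36.3, 43.3 and 64.5 CPM in CONV, and 23.2, 24.2 and 22.9 CPM in sham, a log2 fold change of 1.09 ± 0.23 (adjusted p = 0.117). All CONV libraries were above all sham libraries in both, as in 8 of the 16 genes outside the pair (13.0% of all genes). Of 15 tested genes that lean to interferon gamma, 9 were positive in CONV against sham without the pair (51.3% of all genes). EdgeR called none of the 15. DESeq2 called 1, Ciita, lower in FLASH than in CONV (adjusted p = 0.0344), where it called 4.37% of all genes. The smallest p was that of Ciita, the activator of MHC class II genes, at 33.6 and 28.6 CPM in CONV, 16.2 to 21.3 CPM in FLASH and 18.2 to 24.3 CPM in sham outside the pair (adjusted p = 0.236 in CONV against sham). Outside the pair both groups stood apart with CONV above sham for 3 of the 15, Ciita among them (13.0% of all genes). CONV lay below all sham libraries for 3 others, Gbp5, Tgtp1 and Tgtp2 (13.2% of all genes).

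Markers of other cell types also varied across the libraries. Outside the pair, 10 macrophage genes summed to 876 to 1090 CPM in FLASH, 2450 and 929 CPM in CONV and 879 to 1060 CPM in sham. All 10 had positive fold changes in CONV against sham (51.3% of all genes), and edgeR called none. The mean log2 level of the macrophage list less that of sham was 1.3 in CONV replicate 1 and 0.14 in CONV replicate 3. In these libraries the whole set stood at 0.178 and 0.46, and its signalling factors at 0.389 and 1.03. Sensing adaptors and induction factors were higher in CONV replicate 1, at 0.512 against 0.395. So were Rsad2 with Cmpk2 (0.367 against −0.24) and Parp9, Parp14 and Dtx3l (0.209 against 0.163). The other role groups of the set were lower in CONV replicate 1. The 8 neutrophil genes summed to 5.19 to 6.37 CPM in FLASH, 21.1 and 10.9 CPM in CONV and 3.63 to 5.92 CPM in sham, and 9 T cell genes to 4.54 to 9.42, 9.67 and 11.7, and 4.24 to 10.1 CPM in the same order. B cell and lymph node genes summed to 7.21 and 3.35 CPM in CONV outside the pair, against 1.69 to 4.13 CPM in sham. No gene of these lists was at 0 in all 8 libraries. Skeletal muscle genes summed to 1700 CPM in CONV replicate 1 and 596 CPM in sham replicate 3, and keratinocyte genes to 182 CPM in FLASH replicate 4. The part of these cells in the levels of interferon-stimulated genes was not tested.

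**Figure D4:**
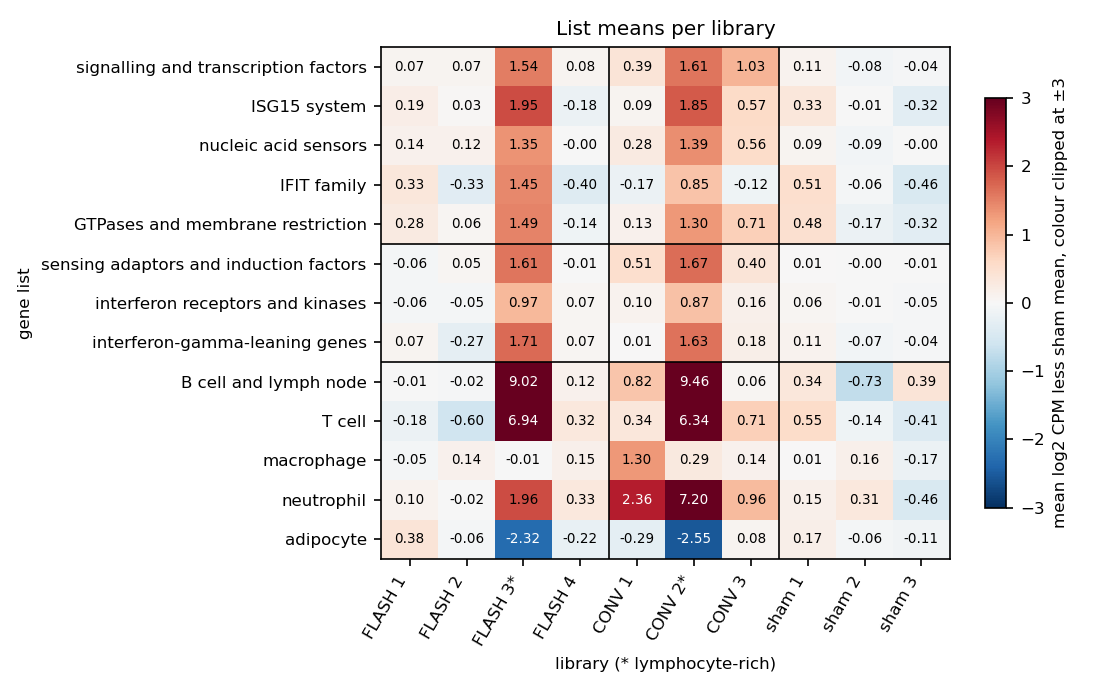
Mean log2 CPM of role groups, pathway lists and cell type marker lists in each library, less the mean of the sham libraries, with lymphocyte-rich libraries starred and the colour clipped at 3 in each direction. Signalling factors stand at 0.39 and 1.03 in CONV 1 and CONV 3 and near 0 in FLASH 1, 2 and 4, the B cell list at 9.02 and 9.46 in the starred libraries, and the macrophage list at 1.30 in CONV 1.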

How the data were processed

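The authors deposited raw counts per gene symbol, whole numbers in 1 file for each library, with no normalization. TRIzol and column extraction and a stranded kit with ribosomal RNA depletion were used, per the labels' protocols. The build mm10 and kallisto 0.5.0 are named per the submitters' processing notes, while the strand setting and annotation were not given in the sources used here. The deposited counts carry entries in the style of htseq-count for reads given to no gene. Which tool made the counts is therefore uncertain. Entries for reads given to no gene were left out. They held 52.0% to 69.6% of all counts of a library, with 69.6% in FLASH replicate 3 and 66.7% in CONV replicate 2.

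In R 4.3.3, genes passing filterByExpr by group were fitted with edgeR 4.0.16 (TMM, robust quasi-likelihood, 1 mean per group, two-sided contrasts, Benjamini and Hochberg over all genes tested). SE is the absolute log2 fold change over the root of F, and intervals are at 95%. The edgeR fit, and no other step, was tested on simulated counts with known changes. List levels average log2 CPM (prior count 2) over a list. A B cell list level that exceeded every sham library by over 3 log2 units made a library lymphocyte-rich. Positions and exon overlaps came from GENCODE on mm10.

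Alternatives were DESeq2 1.42.0, limma 3.58.1 voom, DESeq2 size factors, other filters, a fit of only the groups compared, a block for the replicate number, a B cell covariate, the fit without the lymphocyte-rich pair, and leaving out each library. The genes printed for every library are those with the smallest p in their role group, 2 in CONV against sham and 1 in FLASH against sham. Ifnb1 and Ifng were added by name, and Ifnar1 and Ifnar2 after their values were seen. Other pathway genes are named for a call by DESeq2 or for the smallest p of their list in CONV against sham. A gene this rule picks is not reported here. The 31 genes, taken by symbol, and the pathway and marker lists were chosen with earlier results of these data known. No 2 libraries of the same group agreed within sampling noise (chi-square per degree of freedom 41.9 to 860).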

Additional observations from a re-analysis of the deposited data

Results flagged for a closer look

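In the FLASH group the highest library stood off from the other 3 by more than Dixon's 95% critical value for the gap over the range for 15 of the 31 genes, and in each case it was FLASH replicate 3, one of the lymphocyte-rich libraries. FLASH replicate 3 stood off in the same way for 17.3% of all genes tested. Chance alone sets off this rule in about 5% of groups, and the 15 are not independent since they share that library. Among signalling factors the value in FLASH replicate 3 was 144 CPM for Stat2, 129 CPM for Irf1, 77.1 CPM for Irf7 and 76.2 CPM for Irf9. Among sensors it was 63.1 CPM for Zbp1, 167 CPM for Ddx58 and 34.5 CPM for Dhx58. In the ISG15 system it was 46.5 CPM for Usp18 and 88.8 CPM for Herc6. Mx1 and Mx2 were at 64 and 27.9 CPM. The other effectors were Parp14 at 353 CPM, Samd9l at 367 CPM, Trim30a at 208 CPM and Ifi44 at 14.7 CPM. The same library had 1980 CPM of B cell and lymph node genes, against 3.04 to 3.8 CPM in the other FLASH libraries.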

How the results depend on the processing

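No gene of the set was called by edgeR with all 10 libraries or without the pair, so no call of these fits could change sign. The median of the set changed sign in FLASH against sham and in FLASH against CONV under some settings. Ifit2 in CONV against sham had a log2 fold change of 0.21 with all 10 libraries and −0.40 without the pair. EdgeR called 0 genes with all 10 libraries. Once the lymphocyte-rich pair was left out it called 6 in CONV against sham and 2 in FLASH against CONV, none of them in the set. DESeq2 called 66 genes in CONV against sham and 40 in FLASH against CONV with all 10; leaving the pair out, it called 4 in FLASH against sham, 661 in CONV against sham (6 of the set) and 667 in FLASH against CONV (4 of the set). Limma voom without the pair called 4 in CONV against sham and 3 in FLASH against CONV. Leaving out single libraries of the 10 gave 0 to 1 genes called in CONV against sham and in FLASH against CONV, and without FLASH replicate 3 the median of the set in FLASH against sham was −0.0229 in place of 0.458. The median in FLASH against CONV ran from −0.666 (without FLASH replicate 3) to 0.247 (without CONV replicate 2). From the 8 libraries, leaving out a further one gave 0 to 1134 genes called in CONV against sham (0 to 8 of the set) and 0 to 1025 in FLASH against CONV (0 to 7 of the set). The highest counts came without CONV replicate 1, where 1 CONV library is left and is taken to vary as the other groups do. Stat2, Irf9, Irf7, Irf1, Zbp1, Bst2 and Rtp4 were then higher and Ifit2 lower in CONV than in sham. The median of the set in those 8 libraries ranged from −0.0623 to 0.18 in FLASH against sham and 0.0233 to 0.392 in CONV against sham. The cause was not tested for any of these.

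With the replicate number as a block (replicate block), 0 genes were called in each comparison, 0 of them in the set. Same-numbered libraries deviated from their group means with correlations of −0.756 to 0.261. These values include the lymphocyte-rich pair and cannot decide whether same-numbered samples were paired.

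CONV outside the pair rests on 2 libraries, and Isg15, at 1.41 to 4.56 CPM in the 8 libraries, has the lowest mean CPM of the set.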
